A study of Mus musculus with 4 samples.

Results

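The collagen chains are the probe sets of the deposited table that the platform annotation assigns to exactly 1 symbol of the form Col, type number, a, chain number. They comprise 42 chains on 82 probe sets, out of 18193 genes with a single symbol. The series compares mesenchymal stem cells (MSC), plastic-adherent stromal cells able to form bone, fat and cartilage, from bone marrow and from flushed colon of C57BL/6 mice. All 4 lines, 2 from each tissue, were freed with collagenase type I, cultured in low-glucose medium containing 10% serum, and harvested at passages 5 to 10, without a treatment or genetic change being named. A line here means the culture measured by 1 array, as the sample titles give only the tissue and the replicate number. The labels call the arrays biological replicates, but do not say whether the lines of a tissue came from separate animals. The p-values therefore measure the spread between these lines. Each array carries the RNA of a whole culture, so fewer cells of a type and less RNA per cell cannot be told apart.

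Collagens are trimers of chains wound into a triple helix, and the gene names give the type and then the chain. Fibrillar types such as I, III and V form the banded fibres that stromal cells lay down, and FACIT types sit on the surface of those fibres. Type IV forms the sheet of basement membranes, type VI forms beaded filaments around cells, and types VIII and X form open networks. The chains of a trimer come from separate genes, several of which lie side by side in the genome.

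The bases before the starts of Col6a1 and Col6a2 are shown because these were the 2 chains whose closest arrays differed at least 2-fold between the tissues. Both sequences were read from RefSeq promoter windows of build GRCm38.p6, which held 33 of the 42 chains, and cover the 250 bases upstream of the outermost annotated start, given 5′ to 3′ on the strand of the gene. Capitals mark matches on either strand to the GC box GGGCGG or to the run CCCTCCC, and neighbouring matches to CCCTCCC overlap. The Col6a1 sequence lies at chr10:76726045-76726294 and the Col6a2 sequence at chr10:76623631-76623880, both on the minus strand.
Col6a1: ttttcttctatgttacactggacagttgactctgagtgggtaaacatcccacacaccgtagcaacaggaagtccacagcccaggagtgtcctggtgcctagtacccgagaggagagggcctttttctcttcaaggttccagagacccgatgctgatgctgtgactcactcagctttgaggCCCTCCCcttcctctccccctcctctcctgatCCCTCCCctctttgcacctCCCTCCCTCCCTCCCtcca
Col6a2: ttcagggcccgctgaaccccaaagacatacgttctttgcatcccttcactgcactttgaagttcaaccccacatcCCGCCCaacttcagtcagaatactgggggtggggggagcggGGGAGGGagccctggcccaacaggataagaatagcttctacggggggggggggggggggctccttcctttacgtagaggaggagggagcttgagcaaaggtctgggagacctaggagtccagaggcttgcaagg
The Col6a1 window held 5 overlapping or separate matches to CCCTCCC, all on the strand of the gene, the nearest 4 bases before the start. The Col6a2 window held 1 match on the other strand, 127 bases before the start, and 1 to the GC box. In the Col6a3 window, whose bases are not shown since its start lies inside the annotated gene, 1 match to CCCTCCC was found. Neither TATAAA nor CCAAT occurred in the 3 windows. Among 32851 windows of all genes, 19.7% held CCCTCCC, 32.7% GGGCGG, 12.4% TATAAA and 33.8% CCAAT in the same 250 bases. Of the 38 windows under a collagen chain symbol, 18 held CCCTCCC, 22 GGGCGG, 5 TATAAA and 13 CCAAT, so CCCTCCC and GGGCGG were not limited to the collagen VI chains.

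Col4a1 and Col4a2 are shown by the bases between their starts because the genes run in opposite directions and overlap at their starts. The RefSeq starts bound 22 bases at chr8:11312805-11312826 of GRCm38.p6, written on the plus strand. Col4a2 runs from the first of these bases along the plus strand, and Col4a1 from the last along the minus strand. The 22 bases thus lie in both genes.
Col4a1 start to Col4a2 start: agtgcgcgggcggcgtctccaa
The 2 promoter windows overlap by 78 bases, which are the same DNA read on opposite strands.

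The arrays had median intensities between 53.7 and 55.7 and highest values between 19203 and 20912, so the brightest chains lay near the top of the range, where differences may be compressed. Of the MSC marker list, 13 members were measured and passed the filter on low values described below, among them Cd44, Itgb1, Itgav and Vim with intensities of 4867 or more on every array. Thy1 and Cd34, also on that list, were near the floor on both bone marrow arrays (at most 32.8 and 22.1) and bright on both colonic ones (at least 4516 and 2038). Pdgfra had 1609 and 2493 in bone marrow against 492 and 743 in colon, and Pdgfrb 5042 and 4686 against 3377 and 3844. Mcam had 328 and 48.7 against 1717 and 1704, and Eng 1323 and 445 against 330 and 1035. Vcam1 had 2206 and 2535 against 2281 and 266, and Alcam 217 and 119 against 2140 and 37.0. Nt5e had 76.3 and 27.9 against 209 and 27.6. Of 10 leukocyte and macrophage markers 6 passed the filter, and the list summed to 2850 and 1105 in bone marrow against 1794 and 2895 in colon. Its defining gene Ptprc was at most 28.6, while Cd14 was between 573 and 963, Lyz2 had 1589 on bone marrow replicate 1, and Cd53 had at most 15.7 in bone marrow and 155 and 1333 in colon. Endothelial markers, of which 4 of 9 passed, summed to between 293 and 474 on each array, with Pecam1 at most 2.48. Of 10 epithelial markers 6 passed, and the list summed to 6549 and 5479 in bone marrow against 3104 and 361 in colon. On all arrays but colonic replicate 2, most of that sum was the keratin Krt19, at 6223 and 5083 against 1890.26 and 105, while Epcam was at most 19.6. The part of these markers in the collagen differences was not tested. Smooth muscle markers summed to 36356 to 56011 in bone marrow and to 62413 to 73819 in colon. All 10 of 10 had a higher mean log2 value in colonic lines, as did 6649 of 12920 genes tested. The tissues did not overlap in 6 of the 10, against 33.5% of all genes. Some differences were slight, as Smtn had means of 1632 in bone marrow and 1642 in colon.

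Most fibrillar chains had like intensities in both tissues, while 2 of the collagen VI chains were lower in both colonic lines, and 4 of the 6 basement membrane chains were higher on both colonic arrays, Col4a3 among them by a margin of 0.02 on the log2 scale. A filter on low values, at a mean intensity of about 31.9, was passed by 33 of the 42 chains. Over the 12920 genes tested, limma gave 0 calls at an adjusted p below 0.05, for collagens and for all genes alike (0%). At an unadjusted p below 0.05 stood 6 of the 33 chains, against 6.00% of all genes, and 10 chains when bone marrow replicate 1 was left out. Of the 6, 2 were higher in colonic lines (3.30% of all genes) and 4 lower (2.70%). The 6 were Col4a1 and Col4a2, and Col6a1, Col6a2, Col8a1 and Col10a1. The arrays of the tissues did not overlap in 13 of the 33 chains, against 33.5% of all genes, and the closest arrays were at least 2-fold apart in 2 chains, against 2.69%. The 13 included near ties, as Col11a2 and Col16a1 had margins of 0.0005 and 0.002 on the log2 scale. A chain could pass the filter through 1 tissue alone, which favours chains that differ, so these counts describe the chains that passed. Their median log2 difference, colonic minus bone marrow, was 0.06, against 0.01 for all genes, and it was -0.07 without bone marrow replicate 2.

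**Figure D1:**
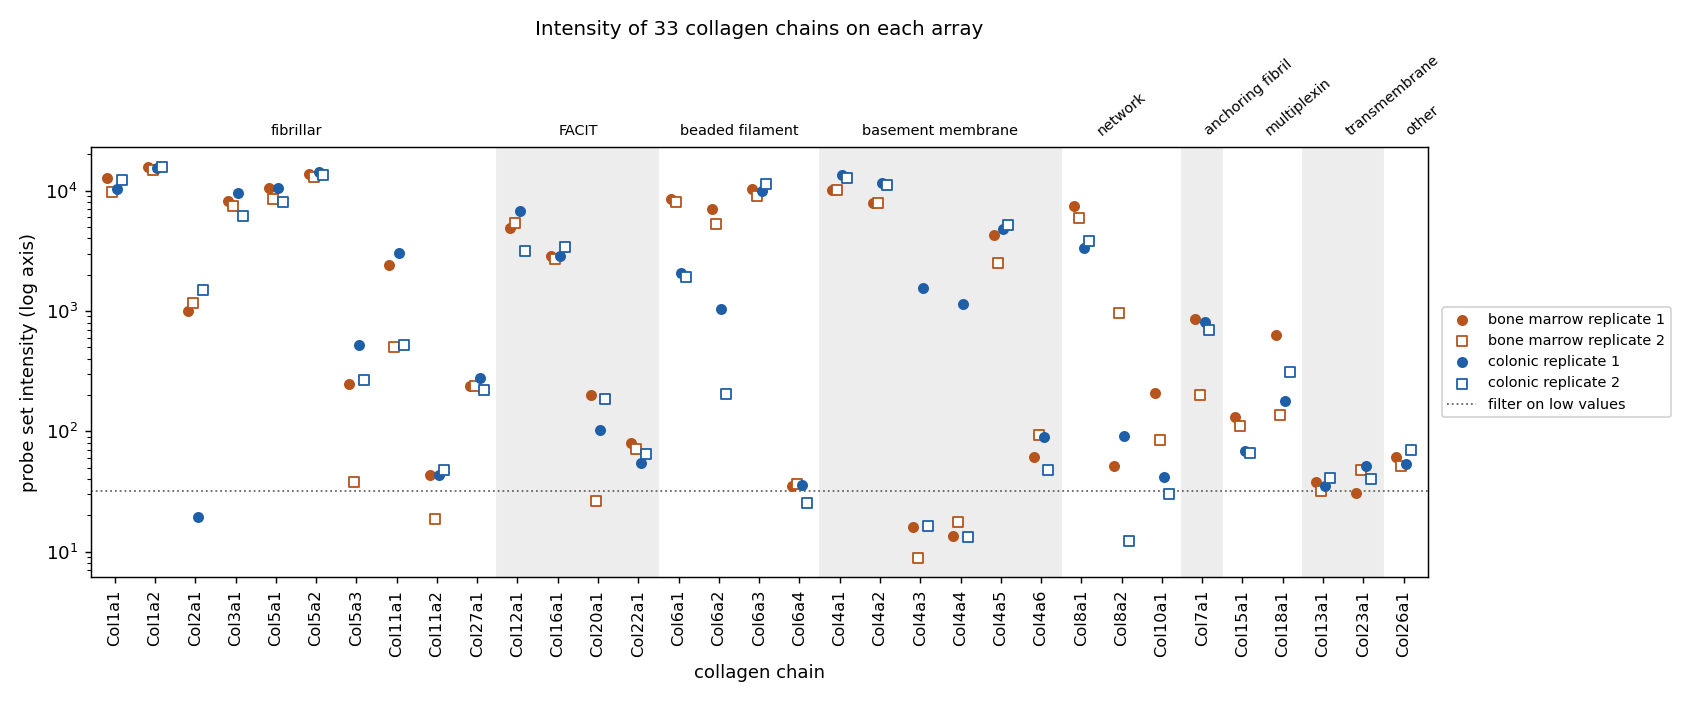
Probe set intensity (log axis) of the 33 collagen chains that passed the filter, grouped by type, with 1 point per array and the filter as a dotted line. Col6a1 and Col6a2 are lower on both colonic arrays, Col4a3 and Col4a4 are high on colonic replicate 1 alone, and Col2a1 is low on that array alone.

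Collagen VI is built from the alpha 1, alpha 2 and alpha 3 chains, and the first and second were lower in colonic lines while the third was not. Col6a1 had intensities of 8470.3 and 7983 on the bone marrow arrays and of 2059 and 1907 on the colonic ones. The tissues did not overlap, and the mean was 4.15 times as high in bone marrow. In limma the log2 difference was -2.05 ± 0.15 (SE), with an unadjusted p of 7.48e-05 and an adjusted p of 0.0523. It stayed between -2.10 and -1.99 when any 1 array was left out. The adjusted p was 0.0490 after median centring and 0.0482 with a filter at the 60th percentile, within a range of 0.0482 to 0.352 over the 15 alternatives.

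Col6a2 had 6999 and 5317 in bone marrow against 1048 and 204 in colon, a mean 9.84 times as high in bone marrow. Both bone marrow arrays lay far above both colonic arrays, and the colonic lines differed from each other by a larger ratio than the bone marrow lines did. The log2 difference was -3.67 ± 0.80 (SE, unadjusted p = 0.00754, adjusted p = 0.453). Without colonic replicate 1 it was -4.81 with an adjusted p of 0.0476, the lowest of 15 alternatives that reached 0.9998, and without colonic replicate 2 it was -2.53. A second probe set of Col6a2 gave -3.53, from 4913 and 3665 in bone marrow against 764 and 161 in colon.

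Col6a3, whose long chain completes the trimer, had 10399 and 9028 in bone marrow against 9973 and 11319 in colon, a log2 difference of 0.13 ± 0.12 (SE, unadjusted p = 0.330). The arrays of the tissues overlapped. Col6a4 was near the floor on all arrays, between 25.2 and 36.2, and Col6a5, at 27.03 or less, did not pass the filter. Col6a1 and Col6a2 are neighbours on chromosome 10, with no other protein-coding gene between them in GRCm38.p6. Among the 3 genes on either side, Pcbp3 and Slc19a1, next to Col6a1, had log2 differences of -0.55 and -0.95. Lss, Spatc1l and Ftcd, next to Col6a2, had -0.24, -0.06 and 0.09, and the multiplexin Col18a1, further on, -0.31. Fat markers were lower in colonic lines in part. Cebpa had 872 and 631 in bone marrow against 18.3 and 35.1 in colon, and Fabp4 had 5157 and 4901 against 459.9 and 112. The 5 measured fat markers of 6 summed to 8961 and 12496 against 1304 and 9039.8. Of these 5, 3 had a lower mean in colonic lines, the third being Pparg, at 2782 and 4520 against 657 and 2340. The others had a higher mean there, Lpl with 125 and 2410 against 94.6 and 6536, and Adipoq with 24.9 and 34.6 against 73.8 and 17.3. The part of the fat markers in the collagen VI difference was not tested.

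Among basement membrane collagens, the ubiquitous chains Col4a1 and Col4a2 were higher in both colonic lines by less than 2-fold. Col4a2 had 7828 and 7911 in bone marrow against 11480.28 and 11235 in colon, 1.44 times as high in colon, with a log2 difference of 0.53 ± 0.09 (SE, unadjusted p = 0.00232, adjusted p = 0.256). Col4a1 had 10113 and 10213 in bone marrow against 13406 and 12626 in colon, 1.28 times as high, with a log2 difference of 0.36 ± 0.08 (SE, unadjusted p = 0.00861, adjusted p = 0.490). In neither chain did the tissues overlap, and the lines of a tissue lay close together. The second probe set of Col4a1, at 5714 and 4927 in bone marrow against 8795 and 8618 in colon, differed by 0.71. The 22 bases between their starts lie in both of these genes, whose differences had the same direction. Of the next genes, Rab20, beyond Col4a2, had a log2 difference of 0.82 and Irs2, beyond Col4a1, of -0.65. Further out, Naxd had 0.14, Cars2 -0.03 and Tnfsf13b 0.08, and Myo16 did not pass the filter.

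Col4a3 and Col4a4, chains of the collagen IV of kidney and lung membranes and also neighbours in opposite orientation on chromosome 1, were bright on 1 array. Col4a3 had 15.9 and 8.90 in bone marrow, 1549.95 on colonic replicate 1 and 16.2 on colonic replicate 2. Col4a4 had 13.5 and 17.5 in bone marrow, 1135 on colonic replicate 1 and 13.3 on colonic replicate 2. All 5 probe sets of the pair showed this pattern, with 438 and 1244 on colonic replicate 1 in the second probe set of Col4a3 and of Col4a4, and 89.8 in the third of Col4a4, against 14.3 or less elsewhere in these 3. The tissue differences of 3.07 ± 1.92 (SE, unadjusted p = 0.176) for Col4a3 and 2.60 ± 1.81 (SE, unadjusted p = 0.218) for Col4a4 became 0.21 and -0.11 without that array.

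Both chains were among 14 genes (0.108% of those tested) that stood on colonic replicate 1 at least 16-fold above every other array on the log2(intensity + 13.7) scale, a description chosen after the values were seen. Their other neighbours did not share the pattern, as Rhbdd1, next to Col4a4, had 1546 on that array and 1252 to 1670.44 elsewhere, and Mff, next to Col4a3, had 5931 there and 5149.95 to 6136 elsewhere. Colonic replicate 1 also had the highest values of the smooth muscle genes Des (2379, at most 52.4 elsewhere) and Myh11 (1123, at most 43.4). The same held for the epithelial keratin Krt20 (889, at most 29.4). Of the other smooth muscle markers, Acta2, Tagln, Cnn1, Lmod1, Synpo2 and Mylk were highest on that array by smaller ratios. Actg2 was highest on colonic replicate 2 (12248, against 11568 on replicate 1) and Smtn on bone marrow replicate 1 (2208, against 1740 on colonic replicate 1). Krt19 was not highest on colonic replicate 1, and the epithelial genes Epcam and Vil1 were at 25.6 or less on all arrays. Whether other cells in that culture bear on the Col4a3 and Col4a4 values was not tested.

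Col4a5, the partner of Col4a3 and Col4a4 and, in another network, of Col4a6, had 4301 and 2484 in bone marrow against 4806 and 5199 in colon. The tissues did not overlap, but bone marrow replicate 2 lay apart, and the log2 difference of 0.61 ± 0.30 (SE, unadjusted p = 0.104) was 0.22 without it. Col4a6, which starts next to Col4a5 on the X chromosome, was between 47.3 and 92.8 and overlapped, with a difference of -0.17.

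**Figure D2:**
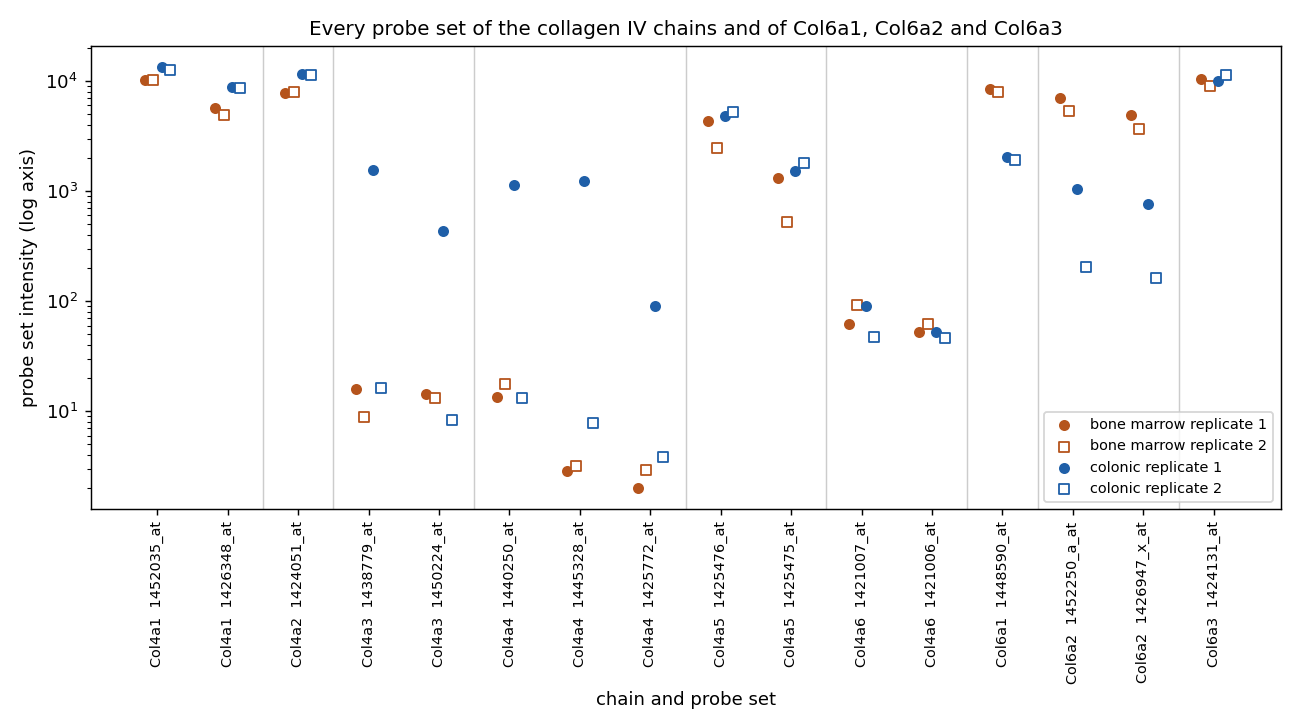
Intensity (log axis) of every probe set of the collagen IV chains and of Col6a1, Col6a2 and Col6a3, with 1 point per array. Both probe sets of Col6a2 have the colonic arrays below the bone marrow arrays, both of Col4a1 have them above, and the 5 of Col4a3 and Col4a4 have colonic replicate 1 on top.

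The 3 network chains had lower means in colonic lines. Col8a1, a short chain of vascular and corneal membranes that fibroblasts also make, had 7464 and 5866 in bone marrow against 3324 and 3779.62 in colon, without overlap. Its mean was 1.88 times as high in bone marrow, with a log2 difference of -0.90 ± 0.18 (SE, unadjusted p = 0.00580, adjusted p = 0.399). The other probe sets of Col8a1 differed by -1.63 and -1.35, in the same direction. Col10a1, the collagen of hypertrophic cartilage, had 209 and 85.3 in bone marrow against 41.8 and 30.02 in colon, also without overlap. Its log2 difference was -1.59 ± 0.48 (SE, unadjusted p = 0.0237, adjusted p = 0.676), and -1.01 without bone marrow replicate 1. Col8a2, the partner chain of Col8a1, had 955 on bone marrow replicate 2, 51.9 on replicate 1, and 91.6 and 12.3 in colon. The tissues overlapped, and its difference of -2.27 ± 1.48 (SE, unadjusted p = 0.192) was -0.33 without bone marrow replicate 2.

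Cartilage markers beside Col10a1 and Col2a1 gave 3 of 7 past the filter, and they summed to 686 and 319 in bone marrow and to 1123 and 659 in colon. The cartilage proteoglycan gene Acan was at most 11.1 and the matrilin gene Matn1 at most 17.99, and neither these nor Cnmd and Hapln1 passed the filter. Sox9, the chondrocyte transcription factor gene, had 323 and 96.4 in bone marrow against 63.8 and 21.1 in colon. The matrilin gene Matn3 had 245 and 106 against 30.04 and 558, and Prg4, lubricin, had 54.4 and 37.4 against 957 and 12.4. Both had the higher mean intensity in colonic lines through 1 array each. On the log2 scale Matn3 differed by -0.16 and Prg4 by 1.43. Their part in the differences of Col10a1 was not tested.

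The main fibrillar chains differed little between the tissues. Col1a1, 1 of the chains of type I collagen, had 12749.95 and 9701 in bone marrow against 10322 and 12147 in colon, a log2 difference of 0.01. Its partner Col1a2 had 15706 and 14901 against 15311 and 15827, a difference of 0.03. Both overlapped between tissues, and Col1a2 was close to the highest values of the arrays. A dimmer probe set of Col1a2 had 1568 and 1667 in bone marrow against 644 and 2065 in colon, a difference of -0.48.

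Col3a1, the homotrimer of elastic tissues, had 8213 and 7426 in bone marrow against 9496 and 6114 in colon (-0.04). Col5a2 lies next to Col3a1 on chromosome 1 and belongs to the type V collagen that starts fibrils. It had 13718 and 12905 against 14231 and 13591, a log2 difference of 0.06 ± 0.08 (SE, unadjusted p = 0.446). Col5a1, its partner, had 10496 and 8548 against 10607 and 8011 (-0.04). In all 3 the tissues overlapped, and the 3 probe sets of Col5a1 differed by -0.04 to 0.08.

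Other fibrillar chains varied between lines of the same tissue. Col5a3 had 247 and 37.9 in bone marrow against 523 and 266 in colon. The tissues did not overlap, yet the difference of 1.74 ± 0.89 (SE, unadjusted p = 0.115) was 0.57 without bone marrow replicate 2. Col2a1, the collagen of cartilage, had 998 and 1173 in bone marrow, 1487 on colonic replicate 2 and 19.3 on colonic replicate 1. It was the 1 gene of the 12920 that stood at least 16-fold below every other array on colonic replicate 1 (0.00774%). Its tissue difference of -2.30 ± 1.86 (SE, unadjusted p = 0.276) became 0.45 without that array, and a single probe set measured it.

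Col11a1, a chain that nucleates thin fibrils, had 2413 on bone marrow replicate 1 and 3035 on colonic replicate 1, against 499 and 523 on the replicates 2. Its second probe set showed the same split, at 1999.53 and 1975 against 237 and 220.37. The difference between tissues was 0.20 and the arrays overlapped. Col11a2 was dim, at 43.2 and 18.7 in bone marrow against 43.2 and 47.3 in colon, with a difference of 0.46 ± 0.34 (SE, unadjusted p = 0.246). Col27a1 ranged from 219.68 to 279 and overlapped. In all, 7 of the 10 fibrillar chains past the filter differed by less than 0.25 on the log2 scale, as did 15 of the 33 chains and 6941 of the 12920 genes.

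FACIT collagens had 4 of 9 chains past the filter, and 0 of the 4 at an unadjusted p below 0.05. Col12a1, a fibril-surface collagen of loaded tissues, had 4847 and 5355 in bone marrow against 6761 and 3159 in colon. The colonic lines enclosed the bone marrow lines, and the log2 difference was -0.14 ± 0.39 (SE, unadjusted p = 0.735). Col16a1 had 2845 and 2696 against 2849 and 3391 (0.17 ± 0.19, SE). Col20a1 had 202 and 26.2 against 102 and 184 (0.71 ± 0.89, SE), and -0.51 without bone marrow replicate 2. Col22a1, a collagen of tissue junctions, was dim at 79.2 and 70.9 against 55.01 and 65.2 (-0.27 ± 0.26, SE). Its 2 arrays per tissue did not overlap, but by a margin of 0.10 on the log2 scale.

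Among the remaining types, Col15a1 and Col18a1 are the multiplexins that bear heparan or chondroitin sulphate chains at basement membranes. Col15a1 had 133 and 111 in bone marrow against 68.9 and 66.3 in colon, without overlap, and a log2 difference of -0.73 ± 0.28 (SE, unadjusted p = 0.0517, adjusted p = 0.839). Col18a1, the source of endostatin, had 630.36 and 137 against 180.18 and 311, which overlapped (-0.31, and -0.63 in its other probe set). Col7a1, which forms the anchoring fibrils below epithelia, had 859 and 201 in bone marrow against 809.74 and 701 in colon, a difference of 0.82 ± 0.74 (SE, unadjusted p = 0.322) that was -0.19 without bone marrow replicate 2. The transmembrane chains Col13a1 and Col23a1 stayed between 30.5 and 51.5, with differences of 0.08 and 0.19 ± 0.28 (SE), and Col26a1 between 51.2 and 70.1.

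Chains below the filter were Col9a1, Col9a2, Col9a3, Col14a1 and Col19a1 of the FACIT group, Col24a1 of the fibrillar group, Col6a5, and the transmembrane Col17a1 and Col25a1. No probe set of these 9 chains exceeded 64.8 on any array, the highest being Col14a1 on bone marrow replicate 1. In 17 chains more than 1 probe set passed the filter. Their differences had opposite signs in 9 of these and lay over 1 apart on the log2 scale in 1, Col4a3.

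**Figure D3:**
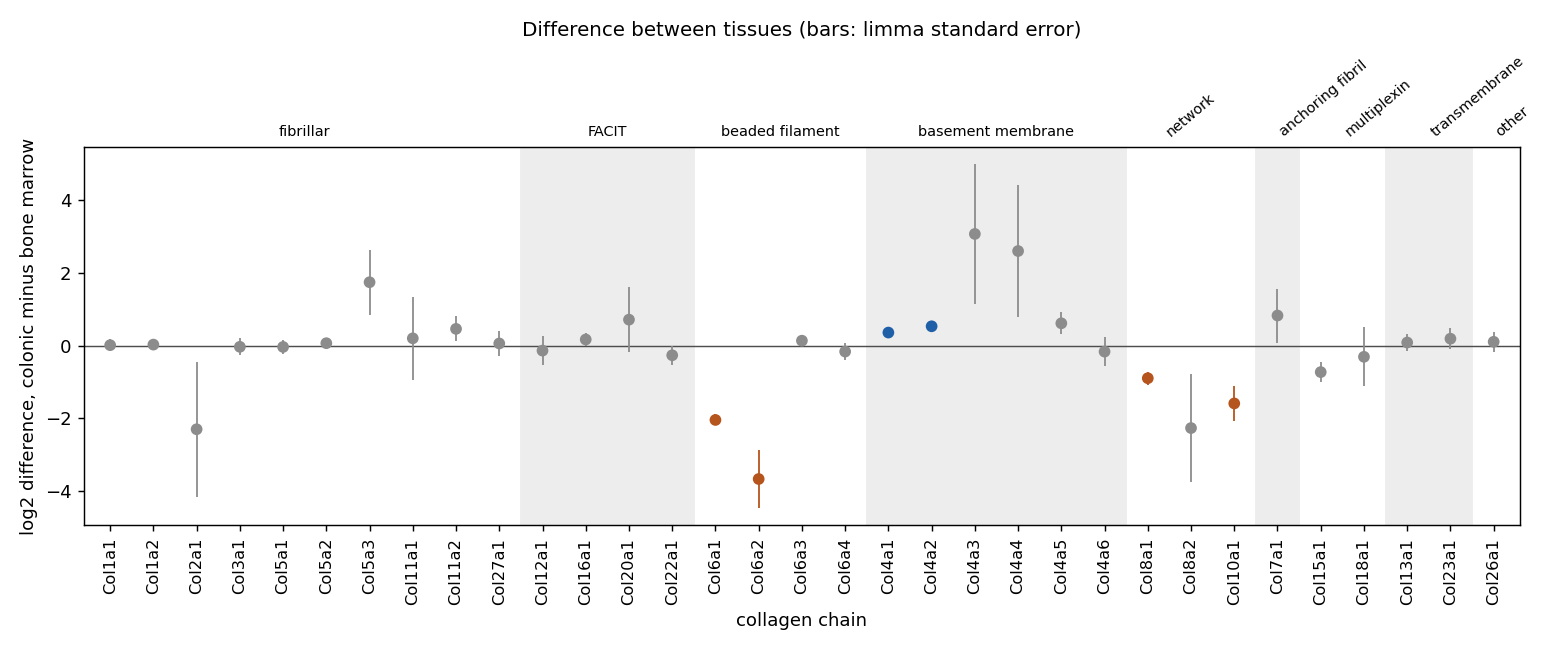
Log2 difference, colonic minus bone marrow, with limma's standard error as bars, for the 33 chains past the filter. Coloured points have an unadjusted p below 0.05 (blue higher and orange lower in colonic lines), and the bars of Col2a1, Col4a3, Col4a4 and Col8a2 are the longest.

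The genes that fold, process, bind and degrade collagen showed 0 calls at an adjusted p of 0.05, and 7 of 63 had an unadjusted p below 0.05, against 6.00% of all genes. For maturation in the endoplasmic reticulum the count was 0 of 18 (median 0.13). The prolyl 4-hydroxylase subunit P4hb had 12329 and 11807 in bone marrow against 12663 and 11908 in colon, and the collagen chaperone Serpinh1 8695 and 9181 against 9294 and 9957. P3h2, a prolyl 3-hydroxylase that acts on collagen IV, had 44.0 and 517 against 21.6 and 14.3, and a difference of -2.48 ± 1.10 (SE, unadjusted p = 0.0786). Tmem38b, Ppib and P3h3 followed by p, with 1.05, 0.66 and 0.79, none below 0.05.

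Processing and crosslinking genes had 1 of 8, higher in colonic lines (median -0.01). That gene, Tll1, a protease of the family that cuts procollagen C-propeptides, had 63.5 and 21.4 in bone marrow against 1801 and 770.14 in colon, which gave a difference of 4.52 ± 0.64 on the log2 scale (SE, adjusted p = 0.193). Pcolce2, an enhancer of that cleavage, had 474 and 6346 in bone marrow against 304 and 21.1 in colon (-4.07 ± 1.66, SE, unadjusted p = 0.0625), Pcolce a difference of -0.35 and the lysyl oxidase relative Loxl3 -0.61. Lox itself, the lysyl oxidase that crosslinks fibrils, was between 11644 and 13594 on all arrays.

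Receptors had 1 of 13 in each direction (median -0.01). Antxr2, a receptor that binds collagen IV and VI, had 1129 and 1591 in bone marrow against 5448 and 3099 in colon (1.61 ± 0.37, SE, unadjusted p = 0.00904, adjusted p = 0.499). Its relative Antxr1, which also binds collagen VI, had 6362 and 6492 against 2390.29 and 4783, a difference of -0.92. Adgrg6, an adhesion receptor with collagen IV among its ligands, had 892 and 1391 against 427 and 63.0 (-2.62 ± 0.92, SE, unadjusted p = 0.0403, adjusted p = 0.778), and Itgb1 differed by 0.39. For degradation the count was 0 of 10 (median 0.36), and Mmp2, Fap, Timp1 and Mmp9 led by p with -1.40, 0.69, 0.52 and 0.49. Their unadjusted p in limma lay between 0.114 and 0.276. Mmp2 had 9150 and 6658 in bone marrow, 1431 on colonic replicate 1 and 6070 on colonic replicate 2. Fap and Mmp9 were dim, at 104 or less on every array, and the tissues overlapped in Timp1 and Mmp9.

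Fibril-associated proteins had 3 of 14 higher and 1 lower (median 0.13). Dcn, decorin, which coats type I fibrils, had 71.7 and 15.3 in bone marrow against 4343 and 4252 in colon, a log2 difference of 6.44 ± 0.61 (SE, unadjusted p = 2.27e-04, adjusted p = 0.0792). Lum, lumican, had 9.77 and 6.07 against 107 and 181 (2.83 ± 0.33, SE), and Tnxb, tenascin-X, 17.9 and 23.6 against 73.6 and 56.97 (1.20 ± 0.25, SE). Tgfbi, which binds collagen VI among others, had 5640.2 and 1637 in bone marrow against 395 and 115 in colon (-3.74 ± 0.86, SE, unadjusted p = 0.00911, adjusted p = 0.499). In these 4 genes the tissues did not overlap.

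**Figure D4:**
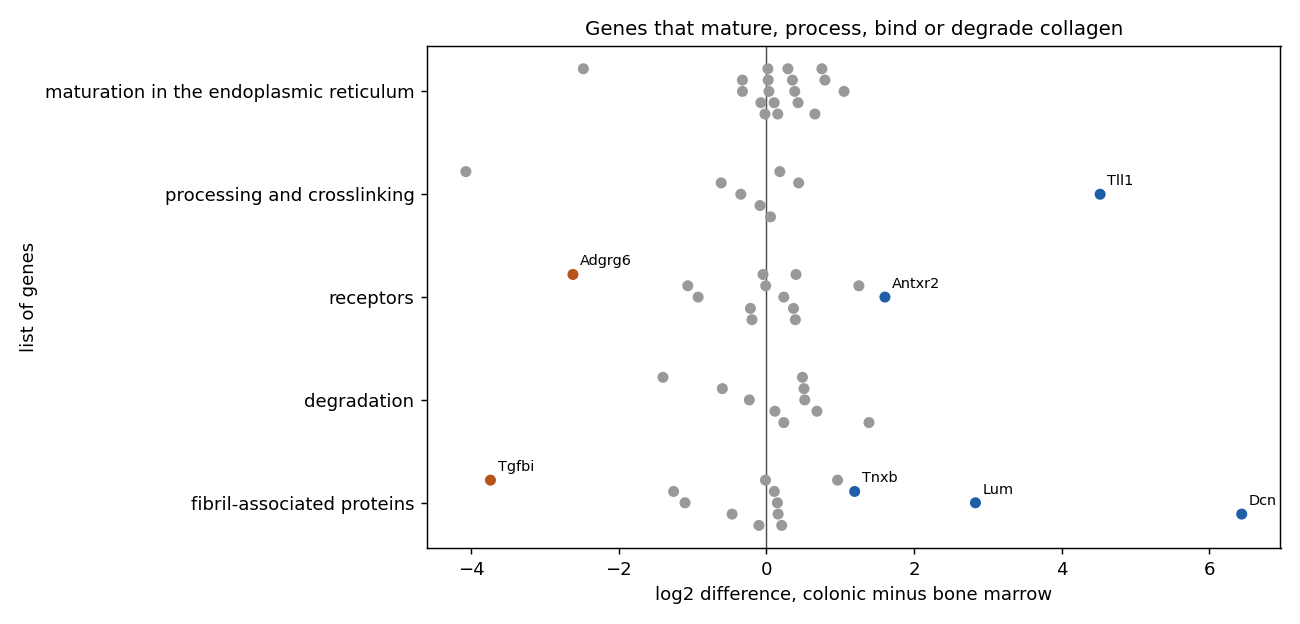
Log2 difference, colonic minus bone marrow, of each gene of 5 lists, with 1 point per gene and rows spread vertically for legibility. Named genes have an unadjusted p below 0.05 in limma (blue higher and orange lower in colonic lines). The outermost points are Dcn at 6.44, which is named, and Pcolce2 at -4.07, which is not (unadjusted p = 0.0625).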

How the data were processed

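Amplified RNA of 4 cultured lines was measured on Affymetrix mouse arrays, 1 array per line. The authors deposited probe set intensities, whose range and decimals show a linear scale. For their summary algorithm, background correction and scaling, nothing was given in the sources used. Array medians differed by at most 0.04 on the log2 scale, so the deposited scaling was kept. Between 981 and 1016 values an array stood at exactly 1, a floor.

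Analysis used log2(intensity + 13.7), with 0.25 of the overall median of 54.6 as pseudocount. A difference on this scale understates ratios near the floor. Of 45101 probe sets, 64 array controls were left out, 34945 carried 1 gene symbol in the platform annotation, 932 several and 9160 none. Probe sets passed when their mean log2 value exceeded the 40th percentile, an intensity of 31.9. Each gene was represented by its brightest probe set, giving 12920 genes. The comparison of tissues used limma 3.58.1 under R 4.3.3 (intensity trend, all 4 arrays, colonic minus bone marrow, two-sided, Benjamini-Hochberg over all genes). Residual degrees of freedom were 2, with 2.53 more from the prior. Permuting 2 arrays against 2 exactly allows no p below 0.333, so none is given. On simulated data for this comparison over 12920 genes, 90.6% of changes of 2 on the log2 scale had an unadjusted p below 0.05, as did 96.8% of changes of 4 and 5.71% of unchanged genes. These shares hold only for the spread that was simulated. Among chains with a measured difference beyond 2, Col6a1 and Col6a2 had an unadjusted p below 0.05 in limma. Col4a3, Col4a4, Col2a1 and Col8a2, which varied between lines of a tissue, did not.

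Full statistics went to the 4 chains of lowest p in each of the fibrillar, basement membrane, beaded filament, FACIT and network groups and to 3 of the remaining ones, and up to 4 members of each list were named in order of p. Members, lists and rules were chosen with earlier results of these data known. Alternatives were 2 other normalizations, 2 pseudocounts, 2 filters, 2 ways to treat probe sets, 2 variance models, the replicate number as a block, and each array left out.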

Additional observations from a re-analysis of the deposited data

How the results depend on the processing

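The count of chains at an adjusted p below 0.05, 0 in limma, was 1 after median centring and 1 with a filter at the 60th percentile (Col6a1 both times). It was between 0 and 1 when single arrays were left out, the 1 being Col6a2 without colonic replicate 1. Over all genes that count of 0 became 33 without colonic replicate 1 and 12 to 17 under 7 other alternatives. The 6 chains at an unadjusted p below 0.05 became 11 of 54 probe sets when each was tested separately, and 6 to 10 when single arrays were left out, with 10 without bone marrow replicate 1. It was 7 with the replicate number as a block, where the adjusted p of Col6a1 was 0.217 and that of Col4a2 0.408, and the replicate block changed no call at an adjusted p of 0.05. The differences between replicates 1 and 2 correlated between tissues at r = 0.11 over 12920 genes and at r = -0.08 over the chains, so the labels' numbers were not taken to pair lines. The median difference of 0.06 lay between -0.0682 and 0.109 when single arrays were left out. Signs turned for chains without a call: Col12a1 was 0.0194 with the mean of its probe sets. When single arrays were left out, ranges were -0.69 to 0.41 for Col12a1, -1.06 to 1.45 for Col11a1, -0.51 to 1.93 for Col20a1, -0.0543 to 0.43 for Col23a1, -5.06 to 0.45 for Col2a1, -0.11 to 5.30 for Col4a4, -0.34 to 0.0116 for Col6a4 and -0.19 to 1.83 for Col7a1. Col6a1, Col6a2, Col4a1, Col4a2, Col8a1 and Col10a1 kept their direction under all alternatives that gave them a value. Not all of them kept an unadjusted p below 0.05. In limma without the intensity trend 5 of 33 chains stood below that limit, and Col4a1 and Col4a2 were not among them. The place of these 2 chains below the limit thus depended on the variance model. With the filter at the 60th percentile the count was 5 of 20, as Col10a1 was not tested there. The cause of these shifts was not tested. Where 1 array of a tissue is left, its spread is taken from the other tissue. Having 2 arrays a tissue limits the precision throughout, and chains near the floor or near the top of the range have no reliable ratio.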

Other observations

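A few genes were bright on the arrays numbered 1 and dim on those numbered 2 in both tissues, a pattern noticed after the values were seen. Both arrays numbered 1 lay at least 4-fold above both numbered 2, on the log2(intensity + 13.7) scale, in 34 of 12920 genes (0.263%), in 3 of the 63 genes of the collagen-related lists and in 1 of the 33 chains, Col11a1. The reverse held for 4 genes. Aspn, asporin, a fibril-binding proteoglycan gene, had 2506 and 3556 on the arrays numbered 1 of bone marrow and colon and 32.6 and 29.9 on those numbered 2. Cspg4, the NG2 proteoglycan that binds collagen VI, had 3058 and 4091 against 67.0 and 31.1, and Prelp 1365 and 467 against 14.5 and 28.8. The Col11a1 intensities were 2413 and 3035 against 499 and 523. Of the other proteoglycans of the lists, Dcn, Lum and Bgn lacked the pattern, the last at 14443 or more on every array. Ogn and Fmod had both arrays numbered 1 above both numbered 2, but by less than 4-fold. Ogn had 5963 and 5960 against 3760 and 649, and Fmod 360 and 117 against 51.5 and 26.9. The labels do not say that equal numbers share a culture day or an animal.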
